A study of Mus musculus with 8 samples.

Results

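Genes of cytokine receptor chains and of a ligand were followed in 8 mouse tumors. Il2rb, Il2rg, Il7r, Il21r, Il12rb1, Il12rb2 and Il18r1 encode receptor chains carried mainly by lymphocytes. Il15 encodes a ligand of such receptors, and Il15ra a chain that holds this ligand on myeloid and other cells. The 9 genes were chosen by symbol, and all 9 were found among 22036 annotated genes (25766 entries in all) of a deposited RNA-seq table. The tumors grew under the skin of female mice after injection of MC38-OVA cells, a line from a colon adenocarcinoma made to express ovalbumin as an antigen. All 8 share that line, host and site. The strain is given as C57BL/6J in one label and as C57BL/5J in another, and the sources used here give no age. In 4 tumors the genotype label of the injected cells reads shNT and in the other 4 shXBP1, a hairpin against Xbp1, whose product switches on genes of the unfolded protein response. The host cells carry no hairpin by these labels, and the sources used here do not say whether each line was 1 clone or what promoter drives the hairpin. Values per tumor are listed below in the order of the tumor numbers, shNT first. Libraries were made from total RNA of whole tumors, so tumor and host cells are mixed in each. The series asks how Xbp1 in the cancer cells acts on cholesterol production and on myeloid cells of the tumor. The labels number the tumors without saying that each came from its own mouse, so a p-value here measures the spread between these samples.

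The common gamma chain, encoded by Il2rg, pairs with a private chain to form the receptors for interleukins 2, 7, 15 and 21, which keep T cells and natural killer cells alive and drive their division. Interleukin 15 is held on the surface of myeloid and other cells by the chain that Il15ra encodes and is shown to neighbouring lymphocytes that carry the chains of Il2rb and Il2rg. Interleukins 12 and 18, made by myeloid cells, act together on T cells and natural killer cells to raise interferon-gamma, the first through the chains of Il12rb1 and Il12rb2 and the second through those of Il18r1 and Il18rap.

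Total counts lay between 29070605 and 36012997 per tumor. Xbp1 checks the labels: it stood at 97.3, 96.0, 102 and 109 CPM (counts scaled to the library total and its TMM factor) in the shNT group and at 77.2, 75.9, 73.7 and 56.6 CPM under shXBP1 (log2 fold change -0.51, SE 0.10, edgeR adjusted p = 0.00255), and the groups did not overlap. Tumor 4 of the shXBP1 group stood apart from its group on the first principal component (16.2, the other 3 from 43.1 to 48.7). It also held fewer leukocyte transcripts: Ptprc, the gene of CD45, a surface protein of leukocytes, stood at 94.8 CPM there and at 156, 193 and 170 CPM in shXBP1 tumors 1 to 3, against 42.5 to 66.5 CPM in the shNT tumors. Of the marker lists, all 10 T cell genes rose in shXBP1 tumors (summed level 38.4 to 76.7 CPM in shNT and 111 to 333 CPM in shXBP1), as did 4 of 5 natural killer cell genes (19.0 to 24.2 and 41.1 to 86.2 CPM) and all 6 macrophage or monocyte genes (1437 to 1982 and 2306 to 4505 CPM). Of 5 dendritic cell genes 4 rose (11.7 to 14.2 and 19.1 to 25.1 CPM), of 5 fibroblast genes 4 (1461 to 2613 and 5602 to 7777 CPM), of 5 endothelial genes 3 (36.8 to 43.9 and 78.3 to 89.7 CPM), and of 5 B cell genes 1, with 3 below the filter on low counts (1.01 to 1.68 and 2.19 to 3.73 CPM). No listed marker was at 0 in all tumors. Single genes made up most of some sums. Lyz2 did so among macrophage or monocyte genes (mean 1479 CPM in shNT and 3061 CPM in shXBP1). Col3a1 did so among fibroblast genes (1579 and 5162 CPM), where Col1a1 was not called (log2 fold change 0.05). The label of a colon adenocarcinoma would call for epithelial genes. The 6 listed summed to 5.61 to 7.87 CPM in shNT and 7.55 to 10.9 CPM in shXBP1 tumors. Most of this was Cdh1 (mean 5.93 and 8.30 CPM). Of the 6, 3 were below the filter and 0 of the 3 tested were called. Their log2 fold changes were 1.65 for Epcam, 0.49 for Cdh1 and -1.74 for Krt19. Among all tested genes 16.9% rose.

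All 9 genes rose in shXBP1 tumors, between 1.45-fold for Il15ra and 4.60-fold for Il18r1. Of the 14907 genes tested, 16.9% rose, and 30.0% changed in either direction (edgeR's quasi-likelihood test, Benjamini-Hochberg adjusted p under 0.05 over all genes tested). For all 9 genes every shXBP1 tumor lay above every shNT tumor, a pattern that 16.5% of tested genes had (30.2% did not overlap in either direction). An increase of at least 2-fold was called for 5 of the 9, Il18r1, Il7r, Il2rb, Il12rb2 and Il21r, beside 7.63% of tested genes. The median log2 fold change of the 9 genes was 1.16, beside -0.01 over all tested genes. The largest increases were in Il18r1, Il7r and Il2rb, and the smallest in Il15ra, Il15 and Il12rb1. In whole tumors, more cells of a type and more RNA per cell cannot be told apart.

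**Figure D1:**
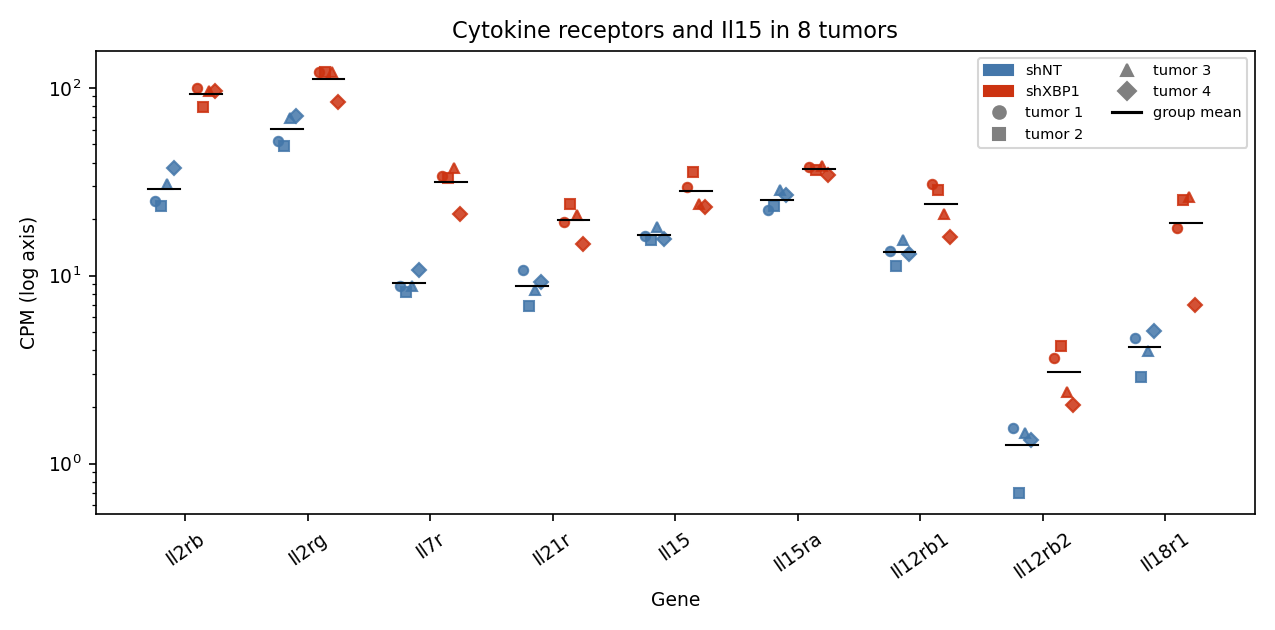
Level of each gene in CPM (log axis) in the 4 shNT and 4 shXBP1 tumors; point shape gives the tumor number and the black bar the group mean. For every gene the shXBP1 points lie above the shNT points, and Il18r1 in shXBP1 tumor 4 (7.01 CPM) lies far below the others of its group (18.0 to 26.4 CPM).

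The promoter letters of the 9 genes were also read for motifs of factors that act in lymphocytes or under interferon. Whether such factors act on these genes here was not tested. RefSeq promoter windows of build GRCm38.p6 (250 bases before to 50 after a start site) were found for 6 of the 9 genes, 9 windows in all. Il2rb, Il15 and Il12rb1 had none in that table. The letters searched, on both strands, were TTCNNNGAA (the STAT motif called GAS), GAAANNGAA (a core for interferon regulatory factors), CCGGAA (ETS factors), TCACAC (a T-box site), TGTGGTT (RUNX factors) and TGACGTGG (an XBP1 element). They were chosen after the windows had been seen. Shown here are stretches with a match, 5′ to 3′ on the strand of the gene, with the matches in capitals:
Il7r (chr15:9529967-9530026, minus strand): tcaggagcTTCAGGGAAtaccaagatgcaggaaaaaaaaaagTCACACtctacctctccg
Il12rb2 (chr6:67376259-67376318, minus strand): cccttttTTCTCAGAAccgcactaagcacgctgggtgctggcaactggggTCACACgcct
Il18r1 (chr1:40465784-40465813, plus strand): tagTTCTGGGAActgtggagctcttaggtg
Il18r1 (chr1:40465846-40465875, plus strand): tacaggtcTTCCCAGAActgaaagcttgag
Il2rg (chrX:101268256-101268315, minus strand): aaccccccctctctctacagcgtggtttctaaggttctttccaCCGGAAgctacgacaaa
Il15ra (chr2:11705138-11705197, plus strand): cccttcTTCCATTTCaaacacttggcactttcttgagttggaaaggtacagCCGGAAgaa
Il15ra (chr2:11705733-11705761, plus strand): agcaaaagcGAAAGCGAAtactccttagc

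The GAS letters were in windows of 3 genes, Il7r, Il12rb2 and Il18r1, and in 8.30% of all 32851 windows. The T-box letters were in windows of Il7r and Il12rb2, beside 14.5% of all windows, and the ETS letters in those of Il2rg and Il15ra, beside 14.9%. The interferon regulatory factor core was in both windows of Il15ra and in 8.56% of all, and in the first of them it reads on the other strand. The RUNX letters were in windows of Il7r and Il18r1, beside 5.27% of all windows. The XBP1 element was in none of the 9 windows and in 0.676% of all. The start sites behind the stretches of Il7r and Il18r1 and the second of Il15ra lie inside the GENCODE M21 gene, 300, 454 and 422 bases from its annotated start. In the first Il18r1 stretch 27 of 30 bases lie in annotated exons, and in the second Il15ra stretch 29 of 29. That Il15ra stretch begins 22 bases after its start site. A match says only that these letters are in the window.

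Among the chains for interleukins 2 and 15, Il2rb encodes the beta chain that both cytokines share (GRCm38 chromosome 15, 78479256 to 78495271, minus strand). It stood at 24.9, 23.6, 30.6 and 37.3 CPM in shNT tumors and at 99.7, 79.1, 96.3 and 96.5 CPM under shXBP1. The groups lay far apart, and the lowest shXBP1 value was still above 2 times the highest shNT value (79.1 against 37.3 CPM). The difference was 3.19-fold (29.1 ± 6.25 and 92.9 ± 9.31 CPM, SD, n = 4 each; log2 fold change 1.67, SE 0.14, edgeR adjusted p = 1.38e-05). Il2rg (chromosome X, 101264378 to 101268255, minus strand) stood at 52.4, 48.8, 69.4 and 71.2 CPM in shNT tumors and at 122, 121, 121 and 83.9 CPM in shXBP1 tumors. The first 3 shXBP1 tumors were nearly level, and tumor 4 lay between them and the shNT tumors. It rose 1.85-fold (60.4 ± 11.5 and 112 ± 18.6 CPM, SD, n = 4 each; log2 fold change 0.89, SE 0.15, edgeR adjusted p = 0.00151). Il2ra, the alpha chain that makes the receptor for interleukin 2 high in affinity, rose 2.81-fold, from 4.55 ± 1.66 to 12.8 ± 2.52 CPM (SD, n = 4 each).

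Il7r encodes the alpha chain for interleukin 7, a mark of naive and memory T cells (chromosome 15, 9505788 to 9530176, minus strand). It stood at 8.82, 8.23, 8.80 and 10.7 CPM in shNT tumors and at 33.8, 33.1, 37.5 and 21.2 CPM in shXBP1 tumors. The shNT tumors were close to each other (a coefficient of variation of 11.6%), and shXBP1 tumor 4 was the lowest of its group. The rise was 3.44-fold (9.13 ± 1.06 and 31.4 ± 7.08 CPM, SD, n = 4 each; log2 fold change 1.78, SE 0.17, edgeR adjusted p = 2.29e-05). Il7, its ligand, which stromal cells make, did not pass the test (8.03 ± 1.09 and 7.34 ± 0.685 CPM, SD, n = 4 each; log2 fold change -0.13, SE 0.15, edgeR adjusted p = 0.551).

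Il21r encodes the private chain for interleukin 21 (chromosome 7, 125603429 to 125633570, plus strand). It stood at 10.7, 6.94, 8.35 and 9.23 CPM in shNT tumors and at 19.2, 24.0, 20.95 and 14.7 CPM in shXBP1 tumors. Tumor 4 was again the lowest of the shXBP1 group, and the groups did not overlap. The rise was 2.24-fold (8.81 ± 1.59 and 19.7 ± 3.89 CPM, SD, n = 4 each; log2 fold change 1.16, SE 0.17, edgeR adjusted p = 0.0004). The ligands made by T cells themselves were near the limit of counting. Il21 had 15 counts over the 4 shNT tumors and 22 over the 4 shXBP1 tumors, and Il2 had 3 and 38, both below the filter and not tested.

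Il15 and Il15ra rose least. Il15 (chromosome 8, 82331632 to 82403222, minus strand) stood at 16.3, 15.5, 18.1 and 15.6 CPM in shNT tumors and at 29.7, 35.4, 24.2 and 23.3 CPM in shXBP1 tumors. The shNT tumors were nearly level (a coefficient of variation of 7.21%), and shXBP1 tumors 1 and 2 were higher than 3 and 4. It rose 1.72-fold (16.4 ± 1.18 and 28.1 ± 5.62 CPM, SD, n = 4 each; log2 fold change 0.78, SE 0.13, edgeR adjusted p = 0.00112). Il15ra (chromosome 2, 11705290 to 11734317, plus strand) stood at 22.3, 23.4, 28.6 and 27.0 CPM in shNT tumors and at 37.9, 36.5, 38.3 and 34.3 CPM in shXBP1 tumors. Its shXBP1 values were the tightest of the 9 genes (a coefficient of variation of 4.89%), tumor 4 included. It rose 1.45-fold (25.3 ± 2.99 and 36.8 ± 1.80 CPM, SD, n = 4 each; log2 fold change 0.54, SE 0.10, edgeR adjusted p = 0.0016).

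Of the chains for interleukin 12, Il12rb2 had the lowest level of the 9 genes in FPKM. Il12rb1, whose chain also serves interleukin 23 (chromosome 8, 70808449 to 70821424, plus strand), stood at 13.6, 11.3, 15.5 and 12.997 CPM in shNT tumors and at 30.9, 28.5, 21.3 and 16.1 CPM in shXBP1 tumors. The shXBP1 tumors spread nearly 2-fold (a highest over lowest of 1.92), and tumor 4 was close to the highest shNT tumor. The rise was 1.81-fold (13.3 ± 1.73 and 24.2 ± 6.78 CPM, SD, n = 4 each; log2 fold change 0.86, SE 0.19, edgeR adjusted p = 0.00546). Il12rb2, the signalling chain that marks type 1 helper and cytotoxic cells (chromosome 6, 67291318 to 67376188, minus strand), stood at 1.54, 0.694, 1.45 and 1.34 CPM in shNT tumors and at 3.66, 4.21, 2.40 and 2.06 CPM in shXBP1 tumors. These levels rest on 22 to 49 counts per shNT tumor and 77 to 131 per shXBP1 tumor. It rose 2.44-fold (1.26 ± 0.385 and 3.08 ± 1.02 CPM, SD, n = 4 each; log2 fold change 1.29, SE 0.32, edgeR adjusted p = 0.00933). The 3' end of Il12rb2 overlaps Serbp1 on the other strand, which had 17396 to 30074 counts per tumor, and the sources used here do not state whether counting used strand, so reads of the pair cannot be told apart with certainty. Serbp1, an RNA-binding protein gene, fell by 0.44 on the log2 scale (chosen after its value was seen).

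Il18r1 encodes the chain that binds interleukin 18 (chromosome 1, 40465552 to 40500854, plus strand). It stood at 4.66, 2.90, 3.98 and 5.08 CPM in shNT tumors and at 18.0, 25.2, 26.4 and 7.01 CPM in shXBP1 tumors. The first 3 shXBP1 tumors were far above the shNT tumors and tumor 4 was just above them, and the spread within the shXBP1 group was the widest of the 9 genes (a coefficient of variation of 46.4%). The rise was 4.60-fold (4.16 ± 0.951 and 19.1 ± 8.89 CPM, SD, n = 4 each; log2 fold change 2.20, SE 0.39, edgeR adjusted p = 0.0035). Without shXBP1 tumor 4 the log2 fold change was 2.48 (edgeR adjusted p = 9.21e-07). The authors' deposited table gives Il18r1 a log2 fold change of 1.66, and Il7r, at 1.70 there, exceeds it. In the authors' deposited table Il2rb stands at 1.62, Il21r at 1.10, Il12rb2 at 1.08, Il2rg at 0.86, Il12rb1 at 0.81, Il15 at 0.76 and Il15ra at 0.53.

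Levels of different genes can be set side by side in FPKM, which the authors scaled to gene length. In shNT tumors the order of the means was Il2rg (32.1 FPKM), Il15ra (14.8), Il15 (9.67), Il2rb (6.13), Il12rb1 (4.15), Il21r (3.13), Il7r (2.27), Il18r1 (0.950) and Il12rb2 (0.381). Neighbours in that order had separate ranges except Il12rb1 with Il21r and Il21r with Il7r. In shXBP1 tumors Il2rb, at 19.6 FPKM, came after Il2rg (59.4) and Il15ra (21.3) and before Il15 (17.1), and its range overlapped those of Il15ra and Il15. Il7r followed at 7.82 FPKM, ahead of Il12rb1 (7.50) and Il21r (7.08), and the ranges of these neighbours overlapped. Il21r also overlapped Il18r1 (4.15 FPKM), and Il12rb2 was last at 0.906 FPKM. By their means Il2rb and Il7r stood higher in the order under shXBP1 and Il15, Il12rb1 and Il21r lower, each past genes whose ranges overlapped its own there.

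**Figure D2:**
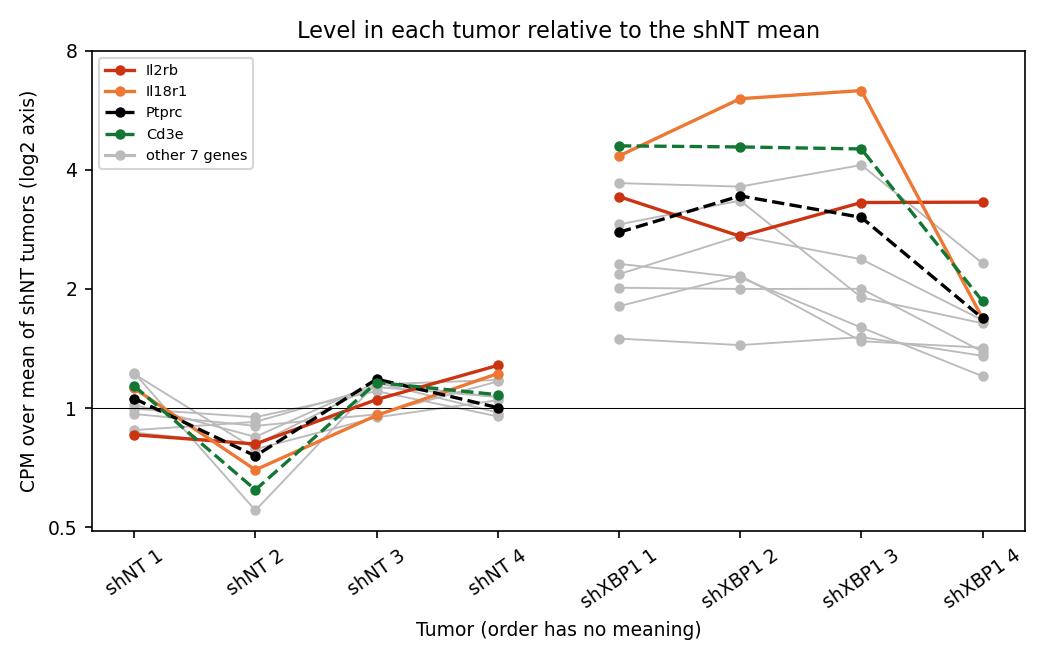
Level of each gene in each tumor divided by the mean of the 4 shNT tumors (log2 axis); Il2rb and Il18r1 are coloured, the other 7 genes are grey, Ptprc and Cd3e are dashed, and lines only join the points of one gene. In shXBP1 tumor 4 Il18r1 stands at 1.69 times the shNT mean, beside Ptprc at 1.69 and Cd3e at 1.86, while Il2rb stands at 3.32.

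Within each group the 9 genes tended to be low in the same tumor. In 8 of 9 genes shNT tumor 2 was the lowest of its group, and it also had the lowest Ptprc (42.5 CPM) and the lowest Cd3e, which encodes a chain of the T cell receptor complex (2.62 CPM, the others 4.55 to 4.88). In 8 of 9 genes shXBP1 tumor 4 was the lowest of its group, with Ptprc at 94.8 CPM and Cd3e at 7.84 CPM (the others 19.0 to 19.4). The exceptions were Il15ra among shNT tumors, lowest in tumor 1, and Il2rb among shXBP1 tumors, lowest in tumor 2. The share of all tested genes that were lowest in shNT tumor 2 or in shXBP1 tumor 4 was not computed. The latter tumor also stood apart on the first principal component of all tested genes. In shXBP1 tumor 4 Il2rb was at 3.32 times its shNT mean and in tumors 1 to 3 at 3.42, 2.72 and 3.31 times. Il18r1 was at 1.69 times its shNT mean in that tumor and at 4.34, 6.05 and 6.35 times in the others. Ncr1, an activating receptor of natural killer cells, was at 2.99 times its shNT mean in shXBP1 tumor 4 and at 2.32, 3.25 and 3.40 times in tumors 1 to 3, so it was not lowest in tumor 4. Of the other natural killer cell genes listed, Klrb1c (4.98 CPM), Klre1 (4.42 CPM) and Klrk1 (17.02 CPM) were lowest of the shXBP1 group in tumor 4, and Eomes was lowest in tumor 2 (3.18 CPM). The summed level of the 5 was also lowest in tumor 4 (41.1 CPM, the others 69.97 to 86.2).

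The 9 genes were also set against Ptprc within each tumor, as a description. The log2 ratio to Ptprc was lower in every shXBP1 tumor than in every shNT tumor for Il15 (a difference of -0.66), Il15ra (-0.88) and Il12rb1 (-0.60). It overlapped between groups for Il2rb (0.27), Il2rg (-0.53), Il7r (0.33), Il21r (-0.27), Il12rb2 (-0.17) and Il18r1 (0.63). As Ptprc rose 2.73-fold, a gene that rose less has a lower mean ratio in shXBP1 tumors. Il15, Il15ra and Il12rb1 rose least of the 9 genes. The share of all tested genes with a lower ratio in every shXBP1 tumor was not computed. The log2 ratio to Cd3e was lower in every shXBP1 tumor than in every shNT tumor for Il15, Il15ra, Il12rb1, Il2rg and Il12rb2. For Il2rg the groups nearly met (3.41 at most in shXBP1, 3.43 at least in shNT). That ratio overlapped for Il2rb, Il7r, Il21r and Il18r1. Cd3e rose 3.88-fold, so here too a gene that rose less has a lower mean ratio in shXBP1 tumors. The share of all tested genes with a lower ratio to Cd3e in every shXBP1 tumor was not computed either. When Ptprc (log2 CPM) entered the edgeR fit as a covariate, 1 of the 9 genes was called higher, Il2rb (log2 fold change 1.67, SE 0.32, adjusted p = 0.0363), where 0.899% of all tested genes were (0.711% were lower). At an unadjusted p under 0.05, 2 of the 9 were higher, beside 8.12% of all tested genes: Il2rb and Il7r, the latter at an unadjusted p of 0.00777 (log2 fold change 0.88, SE 0.29, edgeR adjusted p = 0.146). The other 7 lay between -0.36 for Il18r1 and 0.28 for Il15ra, with edgeR adjusted p from 0.566 to 0.967. In that fit Il12rb1 (-0.22), Il12rb2 (-0.20) and Il18r1 (-0.36) changed sign. Ptprc itself differs between the groups, and at the median the SE of a gene was 2.26 times as large with this covariate. With the log2 CPM of Cd3e as the covariate, added after the data had been seen, Il2rb was the one gene of the 9 called higher (log2 fold change 1.55, edgeR adjusted p = 0.0247), beside 0.986% of all tested genes. Cd3e also differs between the groups. Like Ptprc, it was lowest in shNT tumor 2 and shXBP1 tumor 4 of their groups, so the 2 covariates are much alike. No fit with the Cd3e covariate was run without shXBP1 tumor 4. The Il2rb call under the Ptprc covariate was lost without shXBP1 tumor 4, where the log2 fold change was 1.26 (edgeR adjusted p = 0.808). That fit, also added after the data had been seen, called 0 genes of 15101 in either direction, and of the 9 genes 1, Il7r, had an unadjusted p under 0.05 (0.00598). Il18r1 was at 0.78 there and Il12rb1 at 0.18, so their change of sign was not seen without that tumor. Il12rb2 stayed negative there, at -1.14.

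**Figure D3:**
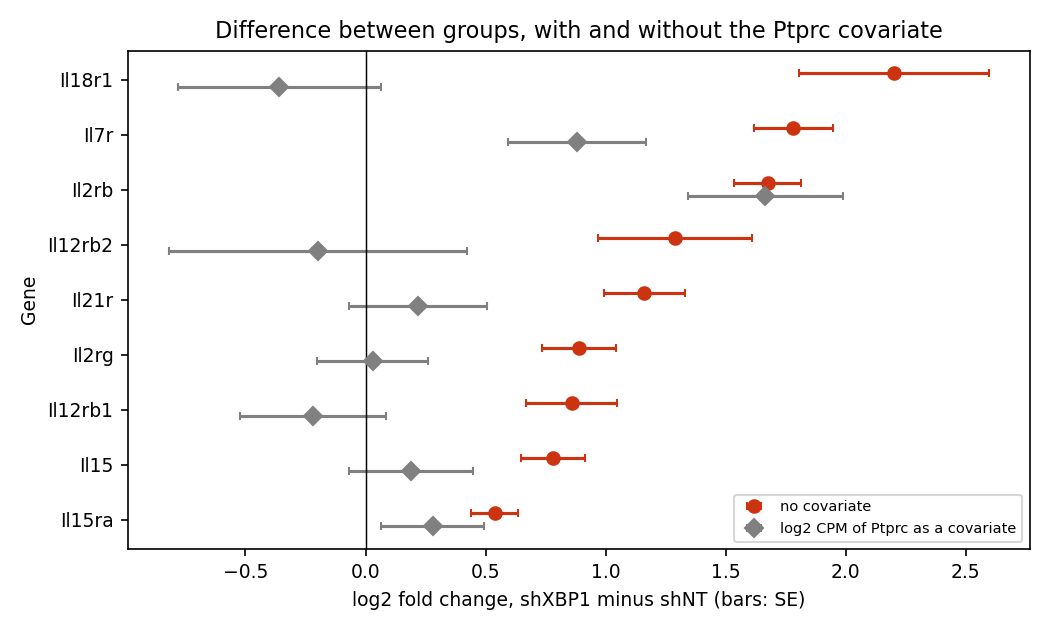
Log2 fold change of each gene, shXBP1 minus shNT, with its SE, from the fit without a covariate (circles) and from the fit with the Ptprc covariate (diamonds). Il2rb has the same value in both (1.67), Il7r falls from 1.78 to 0.88, and Il18r1 goes from 2.20 to -0.36.

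Ratios within a tumor compare chains that work together, and 3 were tested with a two-sided exact permutation test over 70 arrangements, whose smallest possible p is 0.0286. The log2 ratio of Il18rap, the signalling chain for interleukin 18, to Il18r1 was 2.78, 3.01, 2.55 and 2.10 in shNT tumors and 1.15, 0.76, 0.84 and 1.95 in shXBP1 tumors. The groups did not overlap, and tumor 4 was closest to the shNT tumors. The mean difference was -1.44 (exact permutation p = 0.0286, adjusted p = 0.0857 over the 3 ratios). It did not pass after adjustment, and a ratio that is alone at the smallest p cannot pass over 3. In FPKM, Il18rap was at 4.59 ± 0.823 and Il18r1 at 0.950 ± 0.147 in shNT tumors (SD, n = 4 each). In shXBP1 tumors Il18rap was at 7.06 ± 1.33 and Il18r1 at 4.15 ± 1.87 FPKM (SD, n = 4 each), so the signalling chain was the more abundant transcript in both groups. Il18rap itself rose 1.54-fold (edgeR adjusted p = 0.0173), so its lower ratio reflects a smaller rise than that of Il18r1. The log2 ratio of Il12rb2 to Il12rb1 differed by 0.43 (-3.39 ± 0.36 in shNT and -2.96 ± 0.17 in shXBP1, SD, n = 4 each; exact permutation p = 0.0571, adjusted p = 0.0857). The log2 ratio of Il15ra to Il15 differed by -0.22 (0.62 ± 0.14 and 0.40 ± 0.27, SD, n = 4 each; exact permutation p = 0.200, adjusted p = 0.200). For both the groups overlapped, and neither difference passed.

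**Figure D4:**
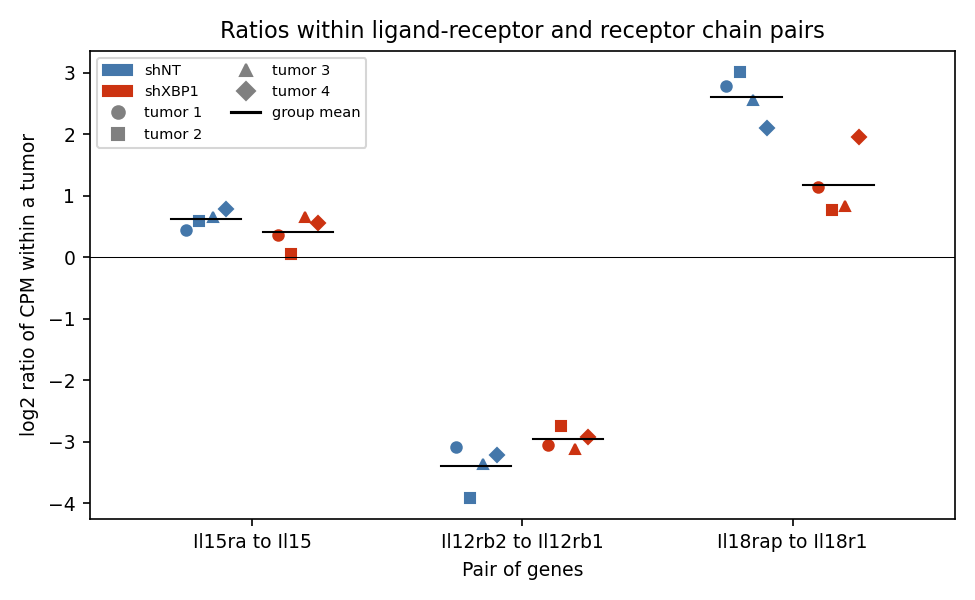
Log2 ratio of CPM within each tumor for Il15ra to Il15, Il12rb2 to Il12rb1 and Il18rap to Il18r1; colour gives the group, shape the tumor number and the black bar the group mean. The values reflect gene length as well as level, so heights are to be compared between groups only; the groups are separate for Il18rap to Il18r1 (1.95 at most in shXBP1, 2.10 at least in shNT).

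Other genes of the same pathways were read from a list of 38 ligands, receptors, kinases, transcription factors, adaptors, feedback and target genes. Of these 31 were tested, 20 rose, 0 fell and 11 did not pass, beside 16.9% of all tested genes that rose and 13.1% that fell. At an unadjusted p under 0.05 edgeR also had 0 lower, as had DESeq2 after adjustment. The median log2 fold change was 0.58. All 4 receptor chains tested rose, with Il27ra, a receptor chain for interleukin 27, 4.26-fold higher and Il4ra, the receptor chain for interleukins 4 and 13, 1.63-fold higher. Il27 itself rose 3.76-fold, from 0.770 ± 0.113 to 2.91 ± 1.06 CPM (SD, n = 4 each). Il12b, the larger subunit of interleukins 12 and 23, was called on only 11 counts in shNT and 58 in shXBP1 tumors (log2 fold change 2.25, SE 0.63, edgeR adjusted p = 0.018), and the call was lost without shNT tumor 4 (0.0529) or without a filter (0.0597). Il12a, its partner in interleukin 12, had 0 and 2 counts.

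Around interleukin 18, the gene of its soluble inhibitor passed the test and that of the cytokine did not. Il18bp, the secreted protein that binds interleukin 18, stood at 21.6, 13.3, 22.9 and 19.4 CPM in shNT tumors and at 91.2, 89.0, 80.3 and 47.0 CPM in shXBP1 tumors. It rose 3.99-fold without overlap (SE 0.24 on the log2 scale, edgeR adjusted p = 0.000387). Il18 was at 4.59 ± 0.949 and 6.40 ± 1.11 CPM (SD, n = 4 each) and did not pass (log2 fold change 0.48, SE 0.20, edgeR adjusted p = 0.087). Whether the changes of Il18bp and Il18 differ from each other was not tested. Of the 4 adaptors Myd88, which carries the signal of the interleukin 18 receptor, rose 1.58-fold and Irak4, a kinase bound to it, 1.34-fold, while Irak1 and Traf6 did not pass.

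Of the signalling genes, Jak3, the kinase bound to the common gamma chain, rose 1.49-fold (49.9 ± 1.94 and 74.2 ± 5.99 CPM, SD, n = 4 each) and Tyk2, a kinase of the interleukin 12 receptor, 1.51-fold. Jak1 was at 193 ± 6.02 and 188 ± 17.8 CPM (SD, n = 4 each) and did not pass. Of the STAT genes 3 of 5 rose: Stat4, which interleukin 12 activates, was 3.77-fold higher, Stat3, which interleukin 21 activates, 1.49-fold and Stat5a 1.28-fold. Stat4 was lowest of its group in shXBP1 tumor 4 (5.62 CPM, the others 11.5 to 12.7). Of the feedback inhibitors 3 of 4 rose, with Socs1 2.67-fold and Cish, a target of STAT5, 1.86-fold higher, while Socs2 did not pass (log2 fold change -0.19). Of the target genes Pim1, a survival kinase, rose 1.52-fold and Bcl2, which blocks cell death, did not pass (log2 fold change 0.05). Mcl1, a relative of Bcl2, was called at an adjusted p of 0.0494 in edgeR (log2 fold change 0.28), a call that was lost in 11 other fits without a covariate at the same threshold, and in the fit with the Ptprc covariate (-0.22, edgeR adjusted p = 0.591). With the Ptprc covariate 2 of the 31 tested genes of this list were called higher, beside 0.899% of all tested genes. These were Socs3 (log2 fold change 1.32) and Pim1 (1.14), of which Socs3 was chosen after its value was seen. The same covariate without shXBP1 tumor 4 called 0 genes in either direction.

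The genes whose profile over the 8 tumors was nearest to each of the 9 were sought among 12983 tested genes, by the root mean square difference between log2 CPM profiles centred on their own means. For Il18r1 the nearest were Klrc1, a receptor of natural killer and cytotoxic T cells (0.13), Cd8b1 (0.14) and Cd8a (0.14), the chains of the CD8 coreceptor. For Il7r they were Cd37 (0.10), Tbc1d10c (0.11) and Pirb (0.11), of which Cd37 encodes a leukocyte tetraspanin. For Il15ra they were Spn, which encodes the leukocyte sialoprotein CD43 (0.05), Stat3 (0.06) and Cblb (0.07). For Il2rb they were Spint2 (0.12), Fcho1 (0.14) and Slc7a8 (0.15), and for Il15 Tg (0.11), Tapbpl (0.12) and Parp3 (0.12). For Il2rg they were Cnbd2 (0.07), Rab29 (0.10) and Cd300ld (0.10), and for Il21r Frmd4b (0.07), Tlr13 (0.08) and Lat2 (0.09). Il12rb1 had Cd180 (0.07), Sp110 (0.11) and Acvrl1 (0.11), and Il12rb2 had Fxyd2 (0.16), Trpm2 (0.16) and Tent5c (0.19). The nearest genes were not sorted by cell type. Among the 9 genes themselves, Il15 and Il12rb1 were the closest pair (0.17), and Il15ra and Il18r1 the farthest (0.93). All these profiles share the same libraries and the difference between the groups.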

How the data were processed

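RNA-seq of 8 whole tumors (4 shNT, 4 shXBP1) was analysed. The deposited table gives raw counts and FPKM per tumor, per the file headers, with log2 fold changes from the authors' DESeq2 comparison, also per the file headers. The submitters' processing notes name GRCm38. The sources used here name no aligner, counter, annotation or strand setting. Tumors were grouped by their titles. Coordinates came from GENCODE M21 (GRCm38), in which 22022 of 22036 annotated identifiers were found. For 21 symbols with more than 1 identifier the one with the highest total was used.

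Counts were filtered with filterByExpr (14907 genes left), scaled by TMM (factors 0.980 to 1.04) and compared with edgeR's quasi-likelihood test (version 4.0.16, R 4.3.3; robust, all 8 tumors, no covariate), two-sided; p-values were adjusted by Benjamini-Hochberg across the genes tested, and 0.05 was the threshold. Log2 CPM used a prior count of 2. Alternatives were DESeq2 (1.42.0), limma voom (3.58.1), RLE factors, no filter or at least 10 CPM in 4 libraries, a block for the tumor number, no robust estimation, a threshold of 0.01, a Ptprc covariate and leaving out each tumor. The fit was tested on simulated data. The genes, lists, ratios and tests were chosen with earlier results of these data known. The text names all 9 genes, fixed companion genes and the 2 with the smallest p per role and direction and the 3 nearest profiles of each gene. Bcl2, Traf6, Stat5a, Socs3, Serbp1, Il2, Il21, Il12a, Ebi3 and Jak2 were named after their values were seen. Replicate libraries differed by more than sampling noise (chi-square per degree of freedom at least 16.5).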

Additional observations from a re-analysis of the deposited data

Results flagged for a closer look

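In the 9 genes and 25 others the text or its rule names, 68 groups of 4 tumors were searched for a tumor far from the other 3; chance gives such a tumor in about 1 group in 20. Among shXBP1 tumors, tumor 4 was low for Il2rg (83.9 CPM, the others 121 to 122), Stat4 (5.62 CPM, the others 11.5 to 12.7) and Cd3e (7.84 CPM, the others 19.0 to 19.4), and tumor 2 was low for Il2rb (79.1 CPM, the others 96.3 to 99.7). Among shNT tumors, tumor 2 was low for Cd3e (2.62 CPM, the others 4.55 to 4.88) and Socs1 (24.6 CPM, the others 39.9 to 41.8), and high for Il27ra (2.18 CPM, the others 1.23 to 1.35), Irak1 (127 CPM, the others 104 to 107) and Irak4 (22.3 CPM, the others 18.0 to 18.5). Why these tumors differ was not tested.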

How the results depend on the processing

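All 9 genes were higher, with an adjusted p under the threshold, under DESeq2, limma voom, RLE factors, no filter, no robust estimation and a threshold of 0.01, and with any 1 tumor left out. Under a filter of 10 CPM in 4 libraries 7 were tested and all 7 rose. The tumor numbers did not pair the samples (correlations of same-numbered deviations from -0.14 to -0.02, and 0 of 4 best with their own number). With the tumor number as a block all 9 still rose (edgeR adjusted p up to 0.0339), as did 17 companion genes. That fit called 3344 genes in either direction, 2040 higher and 1304 lower. With the Ptprc covariate 1 of the 9 genes and 2 companion genes were called higher. Of all tested genes 240 were called in that fit, 134 higher and 106 lower. There Il12rb1 (-0.22), Il12rb2 (-0.20), Il18r1 (-0.36), Il18 (-0.42), Stat4 (-0.40), Mcl1 (-0.22) and Cd3e (-0.087) changed sign. So did Ebi3 (-0.83), Il18rap (-0.23), Jak2 (-0.11), Traf6 (-0.035) and Bcl2 (-0.14), of which Ebi3 and Il18rap had been called higher. Both covariate fits that follow were chosen after seeing the data. Without shXBP1 tumor 4 the Ptprc covariate left 0 of the 9, with Il12rb2 at -1.14. With the Cd3e covariate 1 was called, and Il12rb1 (-0.16), Il12rb2 (-0.094) and Il18r1 (-0.15) changed sign. A threshold of 0.01 left 2523 of 4475 genes. Jak1, not called, was at 0.0034 under 10 CPM in 4 libraries and from -0.090 to 0.013 with 1 tumor left out (0.013 without shXBP1 tumor 4). The 3 ratios kept their direction under FPKM, a prior count of 0.5 and each tumor left out. Paired by number, the smallest exact p that sign flips allow is 0.125, so no ratio could pass.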
